A study of Mus musculus with 13 samples.

Results

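Nasal-only Sox9 peaks are genomic regions that the transcription factor Sox9 occupied in nasal septum chondrocytes and that had no Sox9 peak of rib chondrocytes overlapping them or within 1 kb, counted from edge to edge. They were chosen by the measured peak positions of both tissues and numbered 3821 of the 17440 nasal peaks, or 21.9%. The other 13619 nasal peaks served as the comparison: 11905 shared bases with a rib peak or adjoined one ("touching"), and 1714 stood 1 bp to 1 kb away. Both tissues came from untreated wild-type ICR mice, an outbred strain, and were compared by chromatin immunoprecipitation and sequencing with the same Sox9 antibody. The nasal chondrocytes were taken at embryonic day 17.5 and the rib chondrocytes at postnatal day 1, both after enzyme digestion of the tissue, so site of origin and stage cannot be told apart. Each tissue had 1 Sox9 library, and the rib list held 27656 peaks. The lists give positions on mm9 without a height or a score, so the read depth behind a peak is unknown. They hold no level of any gene, and the cell type could not be checked against markers.

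Chondrocytes are the cells of cartilage, and Sox9 is the HMG-box factor on which their formation and the transcription of cartilage matrix genes depend. It binds short SOX motifs, often as a dimer at paired sites, and much of its binding in cartilage falls in groups of distal enhancers. The cartilage of the nasal septum is formed largely by cranial neural crest, whereas rib cartilage comes from the somites. The title of the series asks about distinct regulatory programmes of Sox9 in the chondrocyte. Regions with a listed peak in nasal septum alone bear on which of its sites may differ between cartilages. A missing rib peak does not show that Sox9 was absent there, since read depth is unknown.

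Peaks are not replicates. Every interval and test below compares subsets of peaks from these lists and covers counting error alone. Neighbouring peaks are not independent, which makes the intervals too narrow and the p-values too small. Positions are 1-based.

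Most nasal-only peaks lay more than 10 kb away from any listed rib peak. The gap to the nearest rib peak had a median of 19.0 kb, an interquartile range from 7.46 to 44.7 kb and a maximum of 3829 kb. These gaps were used by the rule and are given as a description. Between 10 and 50 kb from the nearest rib peak stood 1787 nasal-only peaks, or 46.8%. Closer members numbered 258 at 1 to 2 kb, 434 at 2 to 5 kb and 513 at 5 to 10 kb. These ranges differ in width, so their counts do not give the density of members by distance. Beyond 100 kb stood 344, or 9.00%. Among all nasal peaks that touched no rib peak, gaps formed a lower hump below 1 kb and a taller one above 10 kb on a log scale, with the 1 kb limit in the dip between them. The nasal peaks closest below the limit had gaps of 996, 998 and 999 bp, and those closest above it 1001, 1002 and 1003 bp.

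**Figure D1:**
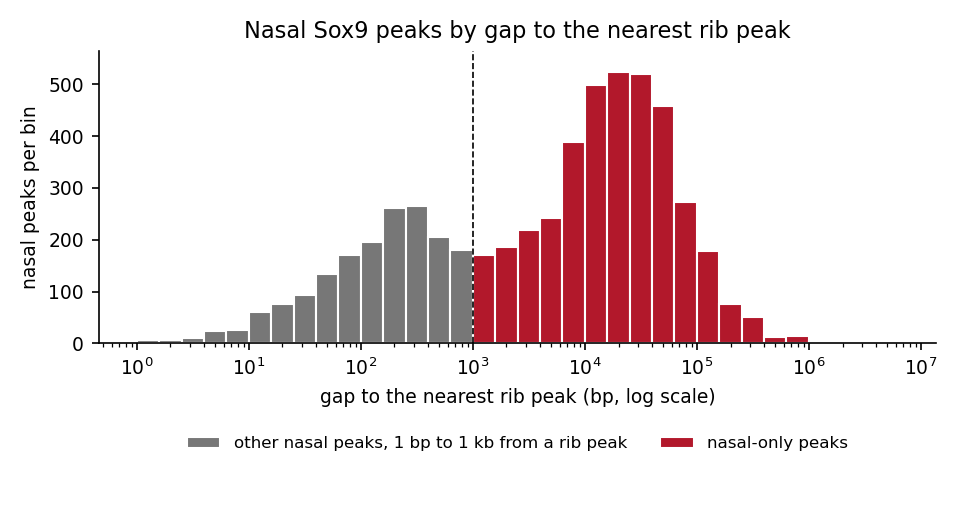
Nasal Sox9 peaks that touch no rib peak, counted in bins of the gap to the nearest rib peak (bp, log scale); the dashed line marks the 1 kb limit of the rule. The 1714 peaks in grey lie within 1 kb and the 3821 nasal-only peaks in red beyond it, with a median of 19.0 kb.

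The submitters divided the rib list into Class I, with 24.6% of its peaks, and Class II, and the labels do not say by what criterion. The rib peak nearest to a nasal-only peak was of Class I in 1244 of 3821 cases, or 32.6% (95% exact Clopper-Pearson binomial interval 31.1% to 34.1%, as for every share below). That share was 62.7% for the nasal peaks 1 bp to 1 kb from a rib peak and 39.6% for those touching one. Within the nasal-only set it was 48.4% (42.2% to 54.7%) at 1 to 2 kb, 26.3% (22.6% to 30.4%) at 5 to 10 kb and 29.4% (24.6% to 34.5%) beyond 100 kb. The share was thus highest among the members just past the limit, which is a description without a test, since the gap was used by the rule.

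How many nasal peaks count as nasal-only depends on how much of the rib list is used. With the first 17440 rib peaks alone, as many as the nasal list holds, 6899 nasal peaks had no rib peak within 1 kb. With the limit set at 0 bp there were 5535, and at 10 kb 2616.

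Nasal-only peaks stood late in the nasal list. The list is not sorted by position, and nothing in the labels tells what its order stands for. Places 8721 to 17440 held 2861 of the 3821 nasal-only peaks, or 74.9% (73.5% to 76.2%), and 5859 of the 13619 other nasal peaks, or 43.0% (42.2% to 43.9%). The odds ratio was 3.95 (95% Wald interval 3.64 to 4.28, two-sided Fisher exact test, p = 1.08e-274). The median place was 12345 for nasal-only peaks, 11351 for peaks 1 bp to 1 kb from a rib peak and 6978 for touching peaks. Along 10 bins of equal size the nasal-only share rose in every step, from 58 of 1744 peaks in bin 1, or 3.33% (2.53% to 4.28%), through 19.4% in bin 5 to 712 of 1744 in bin 10, or 40.8% (38.5% to 43.2%). The distance of the members from rib peaks did not follow this order, with a median gap of 20.7 kb in bin 1, 18.8 kb in bin 5 and 20.3 kb in bin 10.

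**Figure D2:**
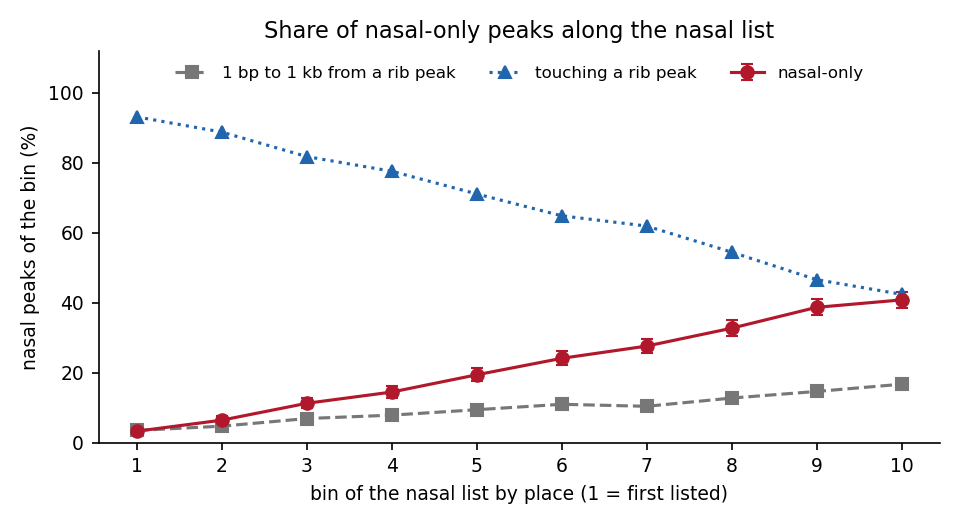
Percentage of the nasal peaks of each bin that are nasal-only (red, bars are 95% exact binomial intervals), 1 bp to 1 kb from a rib peak (grey) or touching a rib peak (blue), against the bin of the nasal list by place, 1744 peaks per bin. The nasal-only share climbs from 3.33% in bin 1 to 40.8% in bin 10, near the touching share there.

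A few nasal-only peaks nonetheless stood near the top of the nasal list. The first of them was the peak on chromosome 4 at 83132347 to 83132579, 233 bp wide and at place 40, with the nearest rib peak 26.7 kb and the nearest nasal peak 196 kb away. The second, on chromosome 3 at 27506437 to 27506573 and place 129, lay 3.60 kb from a Class II rib peak and 8.94 kb from another nasal peak. The third, on chromosome 7 at 52595052 to 52595295 and place 148, lay 56.0 kb from the nearest rib peak. Most remote of these 5 was the peak on chromosome 10 at 40603362 to 40603609 and place 181, with the nearest rib peak and the nearest nasal peak both 372 kb away. The fifth, on chromosome 8 at 73001009 to 73001198 and place 268, had a Class I peak at 11.7 kb. These early members are thus no uniform group, as one stood within 10 kb of another nasal peak and the rest were alone at that distance.

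The members farthest from a rib peak were single or nearly single peaks in long stretches without listed Sox9 peaks. On chromosome X, 58369315 to 58369570 and 57657832 to 57658012 lay 3829 and 3118 kb from the nearest rib peak and 711 kb from each other. On chromosome 3, 45182166 to 45182267 had neither a rib peak nor a nasal peak within 3371 kb. On chromosome 7, 11080693 to 11080903 stood alone within 1983 kb, and on chromosome 5, 69947921 to 69948164 within 1709 kb. Their places ranged from 7162 to 16815, so none of the 5 stood in bins 1 to 4.

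The share of nasal-only peaks with a neighbour in their own list was lower than that of the other nasal peaks, a difference that the rule in part sets. A nasal-only peak keeps at least 1 kb from rib peaks, which leaves little room for a touching nasal peak close by, so the values on spacing are a description without a test. The nearest nasal peak was a median of 21.6 kb from a nasal-only peak and 11.4 kb from another nasal peak. Another nasal peak stood within 10 kb of 1306 of the 3821 nasal-only peaks, or 34.2% (32.7% to 35.7%), and of 47.9% (47.0% to 48.7%) of the others. The odds ratio was 0.566 at 10 kb, 0.386 at 1 kb and 0.647 at 50 kb. The nasal-only share was the lower one in 10 of 10 bins of the list by place. The share with a neighbour also moved with the gap to the nearest rib peak. When peaks that merely touched no rib peak were counted as nasal-only, the odds ratio turned to 1.12.

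Peaks near a rib peak that did not touch it had the highest shares with a nasal neighbour. A nasal neighbour within 10 kb was found for 44.0% of the touching peaks and for 74.9% (72.8% to 76.9%) of those 1 bp to 1 kb from a rib peak. Among nasal-only peaks, it was found for 82.2% of the 258 members at 1 to 2 kb, 73.5% at 2 to 5 kb and 62.4% at 5 to 10 kb. Farther out the share dropped to 18.0% at 10 to 50 kb and 14.5% (11.0% to 18.7%) beyond 100 kb. Nasal-only peaks within 10 kb of a rib peak thus mostly had a nasal neighbour, and the more remote ones mostly had none. Both distances are linked, because 49.9% of rib peaks had a nasal peak within 1 kb. The gap was also used by the rule, so this is a description without a test.

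**Figure D3:**
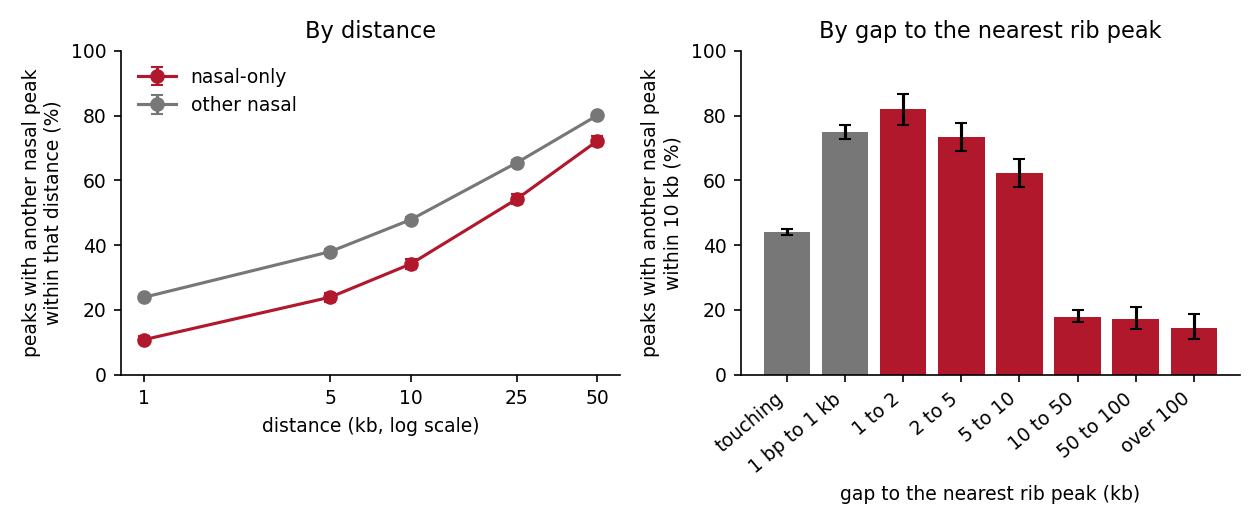
Left, percentage of nasal-only (red) and other nasal peaks (grey) with another nasal peak within 1, 5, 10, 25 or 50 kb (log axis); right, percentage with one within 10 kb by gap to the nearest rib peak, other nasal peaks in grey and nasal-only peaks in red. Bars are 95% exact binomial intervals. On the right, where the gap is the distance used by the rule, the share falls from 82.2% at 1 to 2 kb to 14.5% beyond 100 kb.

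The neighbours themselves were of both kinds. Of the nasal-only peaks, 535 had nasal-only neighbours alone within 10 kb, 631 had other nasal peaks alone, 140 had both and 2515, or 65.8%, had neither. A nasal-only neighbour stood beside 17.7% (16.5% to 18.9%) of nasal-only peaks and 7.26% (6.83% to 7.71%) of the others, with an odds ratio of 2.74. This too is not independent of the rule, because peaks close together have similar distances from rib peaks. A nasal-only peak with another nasal peak within 10 kb was listed after the nearest such neighbour in 570 of 771 cases, or 73.9% (70.7% to 77.0%). Over all pairs of a nasal-only and another nasal peak the probability of being the later entry was 0.711, which lies within that interval, so neighbouring pairs were not distinguished from pairs at any distance.

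Groups made of nasal-only peaks were small. Chaining members at most 10 kb apart with no rib peak between them left 3177 members, or 83.1%, alone. There were 270 chains of 2, 28 of 3 and 5 of 4 members, and none was longer. Rib peaks between members also end a chain, and no such chains are given for the other nasal peaks. These sizes are therefore a description.

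The tightest chain of 4 lay on chromosome 2 at 180921349 to 180923909, within 2.56 kb. Its members were 55 to 173 bp wide, stood at places 4948 to 13912, and had no rib peak within 50 kb. The nearest rib peak was 86.3 kb away, so this was the chain of 4 farthest from a rib peak. A chain of 4 on chromosome 11 at 77596760 to 77599767 had a rib peak at 4.86 kb, and 2 of its members overlapped by 153 bp. On chromosome 9, 40606374 to 40609555 held 4 members within 3.18 kb, and a further nasal-only peak stood within 50 kb. Its nearest rib peak was at 31.1 kb.

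The other chains of 4 were looser. They spanned 18.1 kb on chromosome 5 at 115791069 to 115809122, with 4 rib peaks within 50 kb, and 18.7 kb on chromosome 2 at 152222073 to 152240722, with 3. The 5 most compact chains of 3 spanned 0.554 to 0.876 kb. They lay on chromosome 18 at 13618314 to 13618867, chromosome 10 at 62892249 to 62892947, chromosome 17 at 56601331 to 56602152, chromosome 5 at 143104813 to 143105652 and chromosome 3 at 122686836 to 122687711. The chain on chromosome 5 was the most remote of these, 150 kb from the nearest rib peak. The one on chromosome 3 held the earliest entries, at places 4733 to 8375. In the chains on chromosomes 18 and 17 members overlapped each other.

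**Figure D4:**
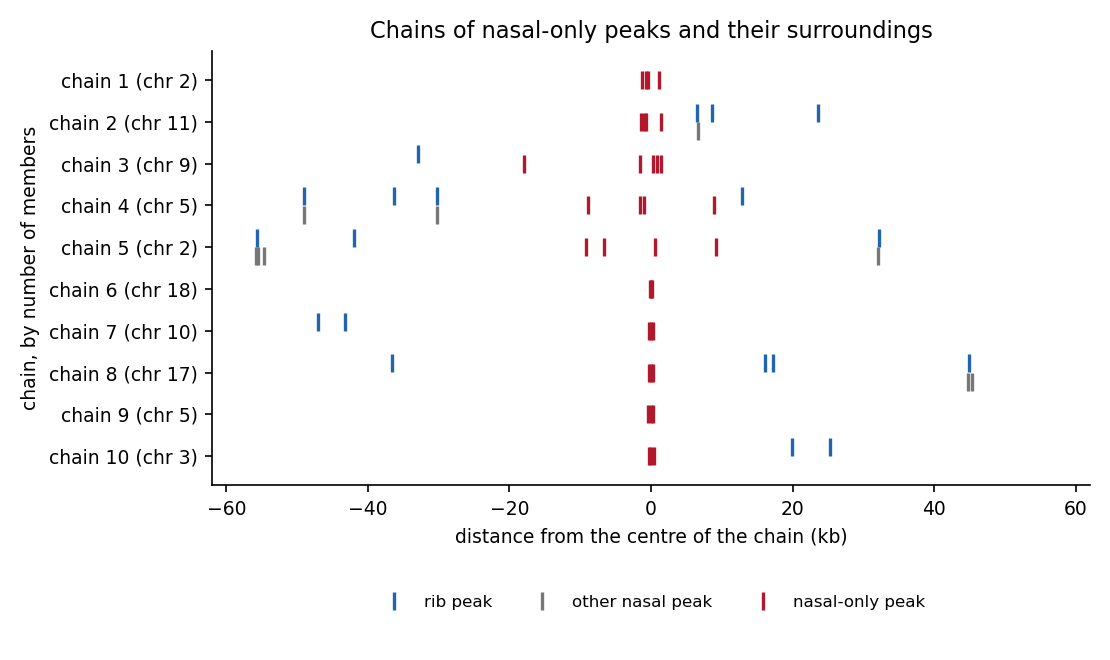
The 5 chains of 4 and the 5 most compact chains of 3 nasal-only peaks (rows), with nasal-only (red), other nasal (grey) and rib peaks (blue) by distance from the centre of the chain in kb, shown for the chain and 50 kb on each side. Chains 1, 6 and 9 have no rib peak in view, and the nearest rib peak of chain 2 is at 4.86 kb.

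Most 100 kb windows with a nasal-only peak held just 1. No such counts are given for the other nasal peaks, so these values do not set the nasal-only peaks apart. Nasal-only peaks occupied 3040 of the 8199 windows that held a nasal peak, 2413 of them with a single member and 22 with 4 or more. In 1330 windows every nasal peak was nasal-only. The fullest window was chromosome 8 at 86700001 to 86800000, with 6 nasal-only peaks at places 8409 to 16176 among 17 nasal peaks, beside 10 rib peaks. Next came 21 windows tied at 4 members, of which the first 9 in chromosome order are given here and the others are not. On chromosome 2, the window from 180900001 held the chain of 4 described above and no other nasal or rib peak. On chromosome 7 at 29700001 to 29800000, 4 members stood among 8 nasal and 10 rib peaks, and the earliest of them was at place 3575. The windows with 4 members at chromosome 1 from 184400001, chromosome 3 from 90000001, chromosome 2 from 26700001 and from 152200001, chromosome 4 from 155200001, and chromosome 7 from 52800001 and from 122500001 held 1 to 7 rib peaks each.

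On the scale of 1 Mb, no window stood out in its nasal-only share. Each of the 1936 windows with a nasal peak was tested against the rest of the list, and 0 passed (0%, Fisher exact test, Benjamini-Hochberg adjusted p at 0.05). Window shares of any size depend on the rib peaks nearby, whose positions the rule used, so these tests are not independent of it. An unadjusted p under 0.05 was found for 101 of the 1936 windows, 83 with a higher and 18 with a lower share. As a share of all windows this is close to 0.05, so it is not read as a result. Nor can the directions be compared by these counts, because a lower share needs more peaks in a window to reach a small p. A window passing alone would have needed 7 nasal peaks that were all nasal-only, and 1000 windows held 7 or more peaks. In the opposite direction it would have needed 46 peaks with none nasal-only, and 4 windows held as many.

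The lowest p belonged to chromosome 17 from 86000001 to 87000000, where 12 of 19 nasal peaks were nasal-only (Fisher exact test, adjusted p = 0.245). It is singled out after its values were seen. Its 12 members were scattered from 86079069 to 86909485, and 14 rib peaks, none of Class I, lay in the same window. The earliest member, 86550301 to 86550584 at place 368, was 110 kb from the nearest rib peak, and a pair at 86565739 to 86566997 lay 125 to 126 kb from one. The window passed with the limit for nasal-only set at 5 kb (adjusted p = 0.0303) or 10 kb (adjusted p = 0.0044), by the Fisher exact test in both cases, and was the 1 window that did.

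In windows of 5 Mb, 1 of 510 passed, or 0.196%. It was chromosome 4 from 120000001 to 125000000, with 22 nasal-only peaks among 43 nasal peaks, or 51.2%, and 41 rib peaks (Fisher exact test, adjusted p = 0.0121). Its nasal-only peaks reached from 120242452 to 124744003, at places 2306 to 17014. The earliest of them, 124428662 to 124428794, lay 36.6 kb from a rib peak. In windows of 500 kb and of 2 Mb, 0 passed.

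Over the chromosomes, nasal-only peaks were spread much like the other nasal peaks, apart from chromosome X when place in the list was left aside. On the 19 autosomes their share of nasal peaks ranged from 18.5% on chromosome 14 and 18.7% on chromosome 1 to 23.7% on chromosome 9 and 24.0% on chromosome 13, with 21.8% over all of them. On chromosome X it was 54 of 164, or 32.9% (25.8% to 40.7%). Chromosome X was the 1 of 20 chromosomes that passed, or 5% (odds ratio 1.76, 1.27 to 2.44, Fisher exact test, adjusted p = 0.0233). This test is not independent of the rule, because the share depends on where rib peaks lie. Chromosome X held 292 rib peaks over 166 Mb, the fewest of the 20 chromosomes. Counted from its start to its last nasal or rib peak, the chromosome had few peaks of either kind. It held 0.324 nasal-only and 0.661 other nasal peaks per Mb, against autosomal medians of 1.62 and 5.43. Its nasal peaks stood later in the list, with a median place of 10811. With the 10 place bins as strata, its odds ratio was 1.56 (1.11 to 2.20) and chromosome X no longer passed (Mantel-Haenszel chi-square test, adjusted p = 0.0848). In the other direction, chromosome 14 had the lowest share and chromosome 1 the lowest p, with an odds ratio of 0.808 for chromosome 1 (0.691 to 0.945, Fisher exact test, adjusted p = 0.073). With the place bins as strata, chromosome 1 rather than X had the lowest p of all chromosomes, and it did not pass either. Its odds ratio was then 0.782 (0.665 to 0.921, Mantel-Haenszel chi-square test, adjusted p = 0.06). Members on chromosome X lay a median of 71.6 kb from the nearest rib peak, and 6 of the 54 had a nasal neighbour within 10 kb. With the first 17440 rib peaks alone, 5 of 20 chromosomes passed, chromosomes 6, 11, 14, 15 and X. The odds ratio of chromosome X was then 1.92 (1.41 to 2.61). For the autosomes among them the direction in that setting is not given. With the whole rib list, chromosomes 6, 11, 14 and 15 had odds ratios of 0.894, 0.981, 0.803 and 0.962.

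**Figure D5:**
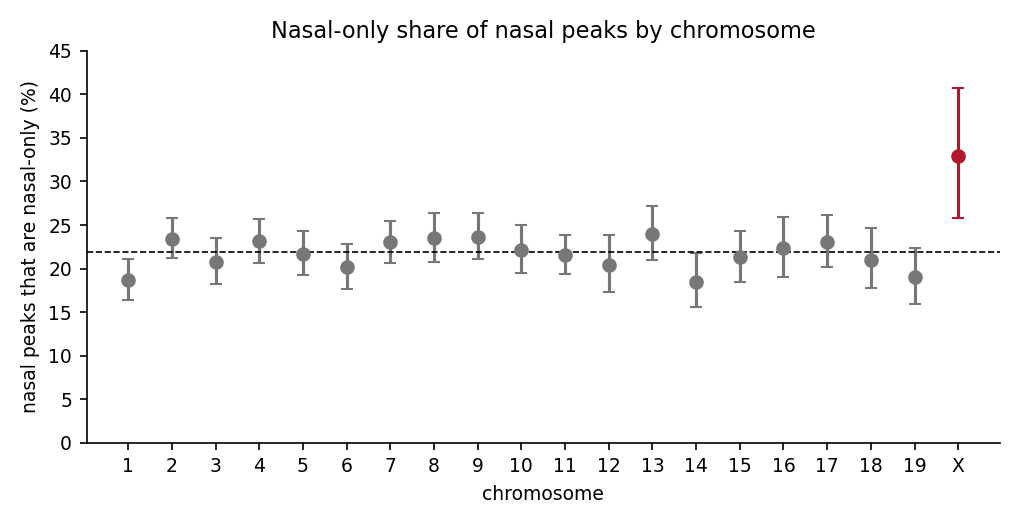
Percentage of the nasal peaks of each chromosome that are nasal-only, with 95% exact binomial intervals; the dashed line is the share over the whole list, 21.9%, and red marks an adjusted p under 0.05. Autosomes lie between 18.5% and 24.0%, and chromosome X at 32.9%.

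In width, nasal-only peaks did not differ detectably from the others in the main comparison, though they did under some alternatives. The median was 183 bp (interquartile range 140 to 234 bp) against 182 bp (144 to 232 bp), and both sets ran from 4 to 498 bp. Wider than the median of the nasal list were 50.0% of nasal-only and 49.6% of other nasal peaks (odds ratio 1.02, 0.946 to 1.09, two-sided Fisher exact test, p = 0.66). With the 10 place bins as strata, the odds ratio was 0.908 (0.842 to 0.979, Mantel-Haenszel chi-square test, p = 0.0119), which turned the direction and passed the threshold. The widest members were 496 to 498 bp. They lay on chromosome 11 at 43633935 to 43634432 and 50190970 to 50191466, chromosome 7 at 50698827 to 50699323, chromosome 18 at 66162033 to 66162529 and chromosome 16 at 17405945 to 17406440. The one on chromosome 7 overlapped or adjoined another nasal peak, and the widest of all had its nearest nasal peak 68.3 kb away.

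The mirror set, rib peaks with no nasal peak within 1 kb, was larger and numbered 13844, or 50.1% of the rib list. Of these rib-only peaks, 48.0% (47.2% to 48.9%) had another rib peak within 10 kb, against 57.8% (56.9% to 58.6%) of the other rib peaks. In the nasal list a nasal neighbour was found for 34.2% of nasal-only and 47.9% of other nasal peaks. A lower share with a neighbour was thus seen in both tissues and is not particular to nasal-only peaks. The lists differ in length, so these values were not compared by a test. Along the rib list the rib-only share rose from 15.1% in bin 1 to 64.1% in bin 10, and was 61.6% (55.8% to 67.2%) on chromosome X. In both tissues the peaks without a counterpart thus gathered late in their list.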

How the data were processed

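The authors deposited 4 peak lists for 2 Sox9 ChIP-seq libraries (nasal septum and rib chondrocytes) as chromosome, start and end on mm9, per the submitters' processing notes for the build. No other unit was given. The other 11 libraries, inputs and IgG among them, were not analysed here. Neither the labels nor the lists name the aligner, the peak caller, its control or the treatment of PCR copies. The names of the lists carry an FDR tag, whose value and meaning the labels do not explain. Per the labels' protocols, cells were fixed with formaldehyde, and their chromatin was sonicated, precipitated and amplified by PCR.

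Gaps were counted edge to edge and checked against bedtools. Routines were tested on simulated data. Shares carry 95% exact binomial intervals, odds ratios Wald intervals. Windows took peaks by centre. Fisher exact p-values were adjusted by Benjamini-Hochberg over all chromosomes or windows with a nasal peak. Alternatives varied the 1 kb limit, neighbour distance, window size, autosomes, merging of peaks within 1 kb, splits and place bins. Added after the data were seen were a shorter rib list, touching peaks as the comparison, and restricted neighbours. Members and lists were chosen with earlier results of these data known. Regions were named by rule: 10 of the fullest 100 kb windows (ties at 4 members taken in chromosome order), windows that passed, the 10 largest chains, and 5 members each that were first listed, most remote or widest. Gene names, start sites, motifs and sequences need an mm9 genome and were not used here. Tests ran in scipy 1.17.1 and statsmodels 0.14.6, tables in pandas 2.3.3 with numpy 2.4.6 under Python 3.11.15, and plots in matplotlib 3.10.9.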

Additional observations from a re-analysis of the deposited data

How the results depend on the processing

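Of 75 recomputed values, 62 kept their direction and side of the threshold, or stayed within 1.5 times a count. Nasal-only peaks stood later in the list under all 11 alternatives run, with odds ratios from 3.29 to 9.17. The odds ratio for a nasal neighbour stayed below 1 in 15 of 17, and turned to 1.12 with a limit of 0 bp and to 2.74 with neighbours counted among nasal-only peaks alone. It moved with the limit, from 0.674 at 500 bp to 0.213 at 10 kb. Because the rule in part sets this odds ratio, the 15 values that kept their direction are a description and give it no support. The odds ratio for width was 1.02 and not past the threshold. It turned below 1 and passed with a limit of 0 bp (0.901, Fisher exact test, p = 0.00135). The same held with peaks merged into sites (0.844, Fisher exact test, p = 9.18e-06) and pooled within place bins (0.908, Mantel-Haenszel chi-square test, p = 0.0119). Merging joined 2 or more peaks in 12.7% of other sites and 5.25% of nasal-only sites. Against touching peaks the odds ratio for width was 0.980 and did not pass (Fisher exact test, p = 0.59). The shorter rib list raised the number of nasal-only peaks to 6899 and the chromosomes that passed from 1 to 5. With the whole rib list, 0 chromosomes passed on autosomes alone, where chromosome X is left out, and 0 pooled within place bins. In windows, 1 passed with a limit of 5 kb, 1 with 10 kb and 1 at a size of 5 Mb. Where no construction explains a change, the cause was not tested. Without replicates, heights or depth, no value has a check against another library.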

Other observations

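Entries that follow each other in the nasal list were close on a chromosome more often than entries 100 places apart, though most were not close. Of 17439 such pairs, 777 lay on the same chromosome within 1 Mb, or 4.46% (95% exact Clopper-Pearson binomial interval 4.15% to 4.77%), against 0.0634% (0.0317% to 0.113%) of pairs 100 places apart. The share was 2.21% in the first 8719 pairs and 6.70% in the other 8720. In the rib list it was 3.54%, against 0.12% at 100 places. Place therefore carries some information on position at short range, in particular late in the lists, where most nasal-only peaks stand. In the window on chromosome 17, for example, the members at 86079069 and 86080671 hold places 15884 and 15885.

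Nasal-only peaks, like the other nasal peaks, were denser on autosomes with more genes. Across 19 autosomes, nasal-only peaks per Mb and protein-coding genes per Mb (RefSeq, GRCm38.p6, gene numbers alone) had a Pearson's r of 0.857 and a Spearman's rho of 0.888, and an r of 0.847 after leaving out chromosomes 7 and 11, whose gene density lay farthest from the median. The other nasal peaks gave 0.848 and 0.863, rib-only peaks 0.559 and 0.526. For the nasal-only share of nasal peaks, Pearson's r was 0.302 and Spearman's rho 0.418. Chromosomes are not replicates and all lists share the same spans, so these values are a description. In windows of 100 kb without any rib peak lay 908 nasal-only peaks, or 23.8% (22.4% to 25.1%). The rule in part sets this value, since it kept members away from rib peaks. No such share is given for the other nasal peaks.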
